A study of Homo sapiens with 51 samples.

Results

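The libraries described here measured what 48 h with the fungal compound chaetocin at 150 or 200 nM did to the RNA of HMLE-TWIST1 cells. They are 9 of the 51 libraries of the study. They were chosen by their labels: 3 libraries at 150 nM, 3 at 200 nM and the 3 day 2 libraries that received the solvent DMSO, with a gene used where values exist for all. HMLE is a line of immortalised human mammary epithelial cells. All 9 libraries come from its derivative HMLE-TWIST1, which carries the transcription factor TWIST1, so controls and treated cells share that background. Groups set beside them are HMLE-TWIST1 at 100 nM for 48 h, HMLE cells in DMSO at day 2, and HMLE-TWIST1 cells at day 4 that had 15 h of 80 nM chaetocin or of DMSO and then 48 h of recovery in fresh medium. HMLE-TWIST1 cells with 500 nM for 48 h are not described, but share the scaling, filter and estimate of spread of the day 2 fits. HMLE cells in DMSO at day 4 enter the washout fit in the same way. Total RNA was depleted of ribosomal RNA and sequenced, with 3 libraries a group. The labels do not say that replicates were separate cultures, so p-values measure only the spread between these samples.

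Chaetocin is best known as an inhibitor of SUV39H1 and its relatives, enzymes that methylate lysine 9 of histone H3 and so mark condensed, silent chromatin. The molecule holds disulfide bridges and reacts with thiols, and effects on the thioredoxin system and on oxidative balance have been described for it. TWIST1, with ZEB1 and SNAI2, drives epithelial to mesenchymal transition, in which cells give up E-cadherin junctions and keratins and build a matrix of fibronectin and collagens. NF-kB and AP-1 are transcription factors that carry stress and cytokine signals to genes such as the chemokine IL8, and NRF2 drives genes that restore reduced thiols.

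Levels are in CPM, the reads of a gene per 1000000 reads of its library after joint scaling of all libraries, and 3 values in a row are replicates 1, 2 and 3. Total reads over genes ran from 8511296 to 13765896 in these 9 libraries, with 2.67 to 4.0% of them in the most abundant gene. The labels of the cells fit their markers: VIM, for vimentin, stood at 2484 to 2870 CPM in DMSO, whereas CDH1, for E-cadherin, had 3 reads in the 3 DMSO libraries together. A change is a log2 fold change with its standard error (SE), for the mean of both doses against DMSO unless a dose is named, with libraries of the same number averaged first so that n = 3 against 3. It counts as called where the Benjamini-Hochberg adjusted p of limma over 18801 genes is below 0.05. On that rule 20% of all genes were higher and 18.4% lower with both doses averaged, 17.8% and 16.5% at 150 nM, and 20.9% and 19.1% at 200 nM. In 20.6% of genes the 6 treated libraries all lay above the 3 DMSO libraries, and in 21.4% all below. The median over all genes tested was 0.017.

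The authors normalised the DMSO libraries and the dose libraries in separate parts of their table, so that part and treatment cannot be told apart in any comparison with DMSO. Joint rescaling sets the level: with library totals alone the median of all genes moved to 0.218, and the share of called genes that were higher went from 52.1 to 73.6%. With the deposited values as they stand these were 0.146 and 67%. The same shares were 74% and 68.1% at 150 nM, where the joint scaling gave 52%, and 72.9% and 66.3% at 200 nM, where it gave 52.4%. Directions below are relative to the joint scaling, and changes smaller than these shifts depend on it. Both doses are compared with the same 3 DMSO libraries, so their values are given side by side and not as independent evidence. In bulk RNA, fewer cells of a type and less RNA per cell cannot be told apart.

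Replicates of the treated cells were not alike. The median gene differed from the DMSO mean by 0.483, 0.429 and 0.34 on the log2 scale at 150 nM and by 0.522, 0.478 and 0.373 at 200 nM. For the DMSO libraries themselves it was 0.0951 to 0.111, but each of them is part of that mean, which makes its own distance smaller. Of the treated libraries, replicate 3 was nearest to DMSO and replicate 1 farthest at each dose. The first principal component, with 66.1% of the variance, set all treated libraries apart from DMSO. The next one, with 14.4%, set replicate 1 of both doses (39.3 and 46.9) apart from replicate 3 (-36.3 and -41.6), with replicate 2 between.

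The enzymes that chaetocin is known for changed little in their own RNA. SUV39H1 stood at 14.2, 9.66 and 14.1 CPM in DMSO, 12.9, 12.9 and 10.8 at 150 nM and 10.9, 12.3 and 10.6 at 200 nM, so that the groups overlap, and did not pass the test (-0.089, SE 0.18, adjusted p = 0.732). SUV39H2 rose by 0.43 (SE 0.13, adjusted p = 0.0198), from 40.6, 35.6 and 45.7 CPM to 65.8, 54.1 and 47.9 at 150 nM and 61.8, 55.2 and 45.4 at 200 nM, with replicate 3 of the 200 nM cells inside the DMSO range. The paralogous methyltransferases EHMT1 and SETDB1 did not pass (-0.037 and 0.071, adjusted p = 0.725 and 0.609). Of 29 genes for H3K9 methyltransferases, demethylases and HP1 proteins, 5 were higher and 5 lower (median -0.04), and each share is at or under that of all genes. With library totals alone these counts were 10 and 3, so the balance depends on the scaling. Without DMSO replicate 1, or without replicate 1 or 2 of both doses, 3 were higher, and the call for SUV39H2 was lost in these fits and without DMSO replicate 2, with an adjusted p up to 0.103.

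Among these 29, TRIM28 rose in every treated library. This corepressor, which brings the H3K9 methyltransferase SETDB1 to its targets, went from 148, 123 and 138 CPM in DMSO to 279.5, 290.4 and 327 and 289, 286 and 351 (1.15, SE 0.10, adjusted p = 3.66e-06). KDM4D, an H3K9 demethylase, rose by 1.63 (SE 0.26, adjusted p = 0.000253) from 1.98, 1.53 and 2.78 CPM to 6.44, 7.45 and 4.68 and 6.71, 9.84 and 6.2. In the other direction, the demethylase KDM4B fell (-0.69, SE 0.11, adjusted p = 0.000263), as did HDAC1, a deacetylase of repressor complexes (-0.65, SE 0.095, adjusted p = 0.000123). CBX5, which encodes the HP1 protein that binds methylated H3K9, stood at 927, 765 and 824 CPM in DMSO, 542, 557 and 619 at 150 nM and 505, 502 and 577 at 200 nM (-0.61, SE 0.10, adjusted p = 0.000332). EHMT1, SETDB1 and CBX5 lie outside the naming rule and were picked after their values were seen.

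TWIST1 RNA was lower in all 6 treated libraries, at 558, 547 and 699 CPM in DMSO, 279.6, 334 and 498 at 150 nM and 274, 276 and 449.6 at 200 nM. The change was -0.73 (SE 0.23, adjusted p = 0.0229) at 150 nM and -0.88 (SE 0.23, adjusted p = 0.00672) at 200 nM. Reads do not separate the introduced copy from the endogenous TWIST1. At 150 nM the call was lost in 5 of 16 alternative settings, which were library totals, the deposited values, and the fits without DMSO replicate 3, 150 nM replicate 1 or 150 nM replicate 2, with an adjusted p up to 0.114.

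Of 15 transcription factors of the transition, 3 were higher and 4 lower, beside 20% and 18.4% of all genes, so nothing is read from the counts. ZEB1, which represses E-cadherin, fell the most, from 1057, 1227 and 1033 CPM to 478, 502 and 760.4 at 150 nM and 426, 475 and 666 at 200 nM (-1.03, SE 0.22, adjusted p = 0.00201). SNAI2, a repressor of the same junction genes, was at 219, 223 and 220.2 CPM in DMSO, 138, 139 and 170.5 at 150 nM and 122, 121 and 158 at 200 nM (-0.65, SE 0.13, adjusted p = 0.00112). Both kept replicate 3 as the treated library nearest to DMSO. TCF4, a basic helix-loop-helix factor, fell by 0.56 on the log2 scale (SE 0.13, adjusted p = 0.00355). SOX9, a factor of progenitor and epithelial cells, rose from few reads, with 7, 16 and 10 reads in DMSO, 39, 40 and 35 at 150 nM and 43, 41 and 49 at 200 nM (1.94, SE 0.25, adjusted p = 5.66e-05). ZEB2 and SNAI1 lay higher in every treated library without passing: ZEB2 had 117, 114 and 114 CPM in DMSO, 138, 141 and 166 at 150 nM and 138, 149 and 169 at 200 nM (adjusted p = 0.0558), and SNAI1 had a change of 0.49 (adjusted p = 0.138). ZEB2 passed in 10 of the alternative settings. Scaled by library totals, this list gave 7 higher and 4 lower.

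**Figure D1:**
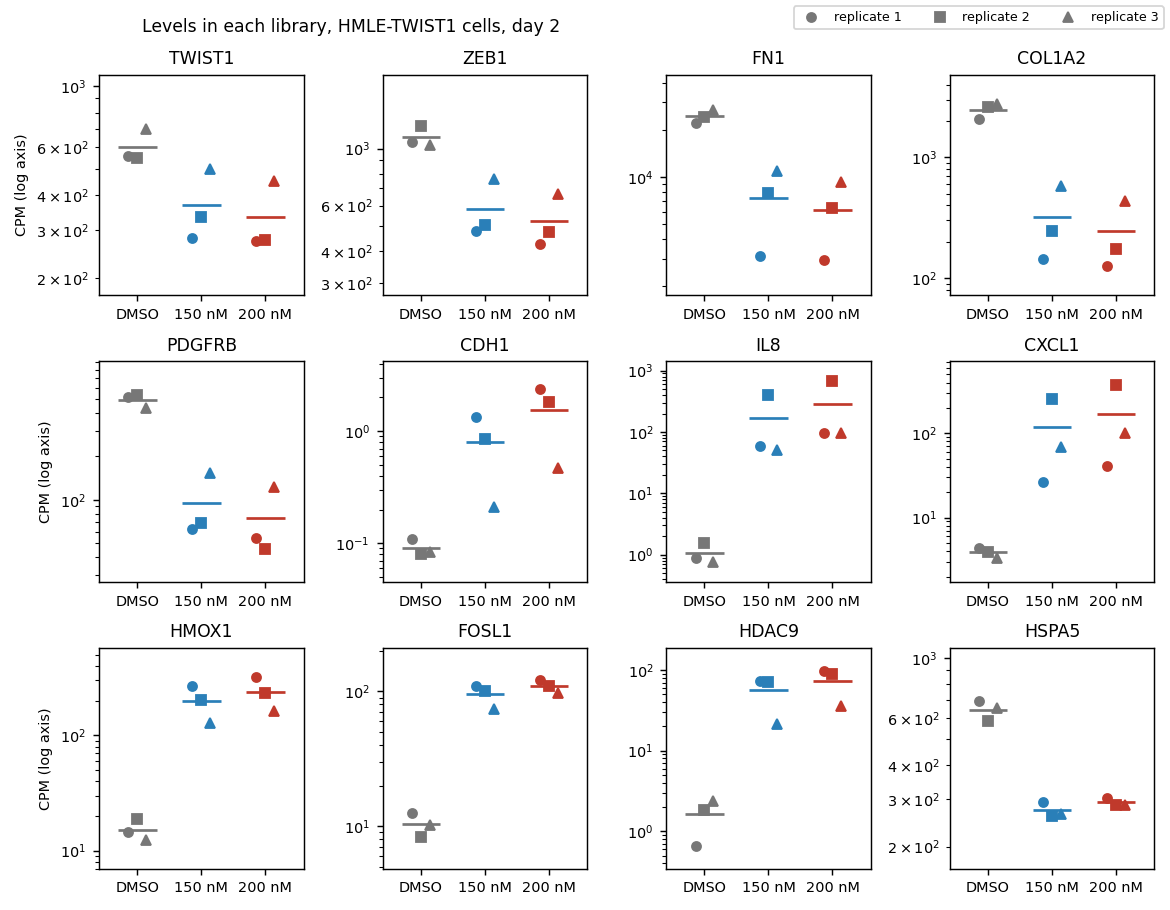
Levels of 12 genes in each of the 9 libraries, in CPM on a log axis with its own range per panel. Symbols mark the replicate number and bars the group mean. FN1, COL1A2, PDGFRB, ZEB1, TWIST1 and HSPA5 lie lower in all 6 treated libraries than in DMSO, and CDH1, IL8, CXCL1, HMOX1, FOSL1 and HDAC9 higher.

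The summed RNA of matrix genes, a mark of the mesenchymal state, was lower in every treated library than in any DMSO library. Summed over 26 matrix and matricellular genes other than collagens, the libraries held 48800, 56570 and 55350 CPM in DMSO, 6811, 14260 and 22360 at 150 nM, and 6355, 11950 and 19490 at 200 nM. In this list 25 genes were tested, 16 were lower and 1 was higher (median -1.49). Of 15 fibrillar and network collagens 13 were lower and 1 higher (median -1.68). Both shares of lower genes stand above the 18.4% of all genes, and replicate 3 kept the most matrix RNA and replicate 1 the least at each dose.

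FN1 encodes fibronectin. Its levels were 22190, 24100 and 26880 CPM in DMSO, 3144, 7906 and 10920 at 150 nM and 2946, 6316 and 9266 at 200 nM, a change of -2.02 (SE 0.44, adjusted p = 0.00369). Replicate 1 was lowest and replicate 3 highest at each dose. COL1A2, for a subunit of type I collagen, had a larger fall, to 144, 245 and 580.2 and 127, 175 and 438 from 2093, 2584 and 2768 CPM (-3.35, SE 0.67, adjusted p = 0.00204). It is among the 10 largest falls under the limits given below with IL8, which required a lack of overlap. The type V chains COL5A1 and COL5A3 changed by -2.35 (SE 0.25, adjusted p = 1.57e-05) and -2.13 (SE 0.29, adjusted p = 8.88e-05). COL5A1 went from 916, 987 and 1043 CPM to 159, 188 and 316 and 148, 141 and 257. Smaller but as well separated were COL16A1, at 63.4, 86.6 and 78.6 CPM in DMSO against 27.0, 27.8 and 25.9 and 24.9, 21.4 and 29.2 (-1.54, SE 0.14, adjusted p = 4.65e-06), and the basement membrane chain COL4A2 (-1.55, SE 0.30, adjusted p = 0.00139). In none of these 6 genes does a treated library reach the DMSO range, and 21.4% of all genes lay lower in the same way. For COL1A2 this was required by its choice, and the other collagens were picked for a small adjusted p.

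MFAP4, a microfibril protein, had the largest fall of the matrix list, from 24.9, 28.2 and 19.2 CPM to 1.34, 1.43 and 2.45 at 150 nM and 1.27, 1.18 and 1.52 at 200 nM (-3.84, SE 0.31, adjusted p = 2.03e-06). SPARC, which binds collagen, fell in a narrower range of replicates, from 2635, 2648 and 2871 to 517, 699 and 846 and 495, 604 and 796 (-2.07, SE 0.17, adjusted p = 2.07e-06). The elastic fibre protein FBLN5 changed by -2.92 (SE 0.31, adjusted p = 1.97e-05), and LOXL2, which cross-links collagen, by -1.44 (SE 0.17, adjusted p = 2.77e-05). The exceptions of these lists started from few reads. COL11A1 rose (1.44, SE 0.41, adjusted p = 0.0123) with 2, 6 and 8 reads in DMSO, 18, 17 and 10 at 150 nM and 16, 12 and 17 at 200 nM, and MFAP2 had 2 reads in DMSO and 76 in the treated libraries, a ratio of 21.4 with a 95% counting interval of 5.73 to 180. COL11A1 was not called without DMSO replicate 1 or with the DMSO libraries of both days as control. COL11A1 and MFAP2 are named as exceptions after their values were seen.

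On the surface of the cells, 13 of 20 mesenchymal adhesion, receptor and cytoskeleton genes were lower and 1 higher (median -0.91), beside 18.4% and 20% of all genes. PDGFRB, the receptor of a fibroblast growth signal, fell from 514, 537 and 432 CPM to 62.5, 68.6 and 152 and 54.4, 45.8 and 123 (-2.68, SE 0.39, adjusted p = 0.000251). The fibronectin receptor subunit ITGA5 changed almost equally at both doses (-1.58 and -1.59, SE 0.11 each), at 248, 240 and 296 CPM in DMSO, 79.2, 96.8 and 85.4 at 150 nM and 81.7, 92.8 and 85.2 at 200 nM. Its partner ITGB1 fell by 0.68 on the log2 scale (SE 0.12, adjusted p = 0.000393), and THY1, a surface glycoprotein of fibroblasts, by 1.64 (SE 0.23, adjusted p = 0.000117). A pair of collagen-binding integrin subunits is among the 10 largest falls.

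They are ITGA11, at 110.1, 182 and 151 CPM in DMSO, 6.63, 11.9 and 35.96 at 150 nM and 6.08, 11.2 and 28.7 at 200 nM (-3.42, SE 0.67, adjusted p = 0.00189), and ITGA10, at 61.3, 67.8 and 52.9 CPM in DMSO against 3.75, 7.92 and 13.3 and 2.99, 4.06 and 12.3 (-3.23, SE 0.42, adjusted p = 7.22e-05). NT5E, an ecto-enzyme that makes adenosine, was the member that rose (0.94, SE 0.23, adjusted p = 0.00488) and is named for that after its value was seen. The intermediate filament VIM and the N-cadherin gene CDH2 did not pass. VIM stood at 2686, 2484 and 2870 CPM in DMSO, 2410, 2580 and 2570 at 150 nM and 2273, 2534 and 2706 at 200 nM (-0.093, SE 0.20, adjusted p = 0.746), and CDH2 at 123, 150.1 and 168 CPM in DMSO, 124, 146 and 138 at 150 nM and 129, 152 and 146 at 200 nM (-0.071, SE 0.40, adjusted p = 0.911). Treated and control libraries overlap in both genes, and the sign of both turned with library totals alone.

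Several epithelial genes rose from near zero and stayed far under their level in HMLE cells. CDH1 had 1, 1 and 1 reads in DMSO, 14, 9 and 2 at 150 nM and 26, 17 and 4 at 200 nM. The ratio of both doses to DMSO was 13.5, with a counting interval of 4.45 to 67.1. Its mean was 0.806 ± 0.568 CPM (SD, n = 3) at 150 nM and 1.55 ± 0.974 at 200 nM, beside 596 ± 55.2 in HMLE cells in DMSO. At 150 nM the call for CDH1 (1.62, SE 0.50, adjusted p = 0.0195) was lost in 5 alternative settings, with adjusted p up to 0.103: precision weights, and the fits without DMSO replicate 2 or 3 or 150 nM replicate 1 or 2. EPCAM, another surface protein of epithelia, went from 1 read to 40, a ratio of 22.5 (3.82 to 912), and HMLE cells held 88.1 ± 11.9 CPM.

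Of 32 epithelial junction and surface genes, 8 were higher and 5 lower, but 16 of them lay under the filter on low reads in DMSO and could be tested only because other libraries held reads, so nothing is read from the counts. CLDN1, a tight junction claudin, had 5, 5 and 5 reads in DMSO, 22, 132 and 68 at 150 nM and 22, 101 and 85 at 200 nM (3.25, SE 0.67, adjusted p = 0.00234), with replicate 1 far under the others at both doses. The call was lost with precision weights.

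Among 14 regulators of epithelial identity 7 were higher and 0 lower, with 9 under the filter in DMSO, so nothing is read from that count. EHF, an epithelial ETS factor, had 3, 3 and 2 reads in DMSO, 77, 122 and 31 at 150 nM and 85, 158 and 45 at 200 nM (4.18, SE 0.46, adjusted p = 2.63e-05). TP63, the master factor of basal cells, had 4, 1 and 0 reads in DMSO, 25, 33 and 14 at 150 nM and 28, 37 and 33 at 200 nM (3.21, SE 0.39, adjusted p = 3.36e-05). ESRP1, which sets epithelial splicing, went from 1 read to 104, a ratio of 58.6 (10.3 to 2340), at 1.34, 2.29 and 1.596 CPM at 150 nM and 1.18, 2.89 and 1.29 at 200 nM. For comparison, HMLE cells held 351, 425 and 260.2 CPM of these 3 genes. KLF5, which was measurable in DMSO, rose from 12.9, 11.2 and 11.6 to 19.99, 25.5 and 22.02 and 22.9, 26.5 and 24.8 CPM (0.97, SE 0.14, adjusted p = 0.000112).

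Keratins and basal adhesion genes did not move as one. KRT18, of simple epithelia, was at 22.4, 24.3 and 22.2 CPM in DMSO, 52.7, 47.4 and 57.2 at 150 nM and 60.9, 56.1 and 68.1 at 200 nM (1.3, SE 0.17, adjusted p = 5.17e-05), without overlap. KRT80 rose by 1.56 (SE 0.22, adjusted p = 9.93e-05) and KRT15 went from 1 read to 45, a ratio of 25.4 (4.33 to 1020). KRT5, the basal keratin, fell (-1.7, SE 0.28, adjusted p = 0.000343) from 1.87, 2.58 and 2.53 CPM to 0.577, 0.382 and 1.17 and 0.544, 0.321 and 0.702. KRT14 and KRT8, named after their values were seen, did not pass (adjusted p = 0.824 and 0.629). Of 9 genes for hemidesmosomes and laminin-332, which anchor basal cells, 4 were higher and 2 lower, beside 20% and 18.4% of all genes. The laminin chain LAMB3 rose by 3.36 (SE 0.51, adjusted p = 0.000336), at 3.3, 1.77 and 2.78 CPM in DMSO, 24.4, 41.3 and 12.02 at 150 nM and 35.8, 56.9 and 18.8 at 200 nM. COL17A1, the hemidesmosomal collagen, had 4, 3 and 6 reads in DMSO, 30, 45 and 42 at 150 nM and 49, 52 and 51 at 200 nM (3.03, SE 0.36, adjusted p = 3.52e-05), and CD151, a tetraspanin of the same junction, fell (-0.62, SE 0.085, adjusted p = 7.47e-05).

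The 10 largest rises and falls were taken among genes called at each dose and averaged, without overlap of treated and control libraries and with a mean of at least 2 on the log2 CPM scale. The largest rise was that of a chemokine. IL8, which draws neutrophils, had 8, 19 and 9 reads in DMSO, 619, 4125 and 487 at 150 nM and 1063, 6281 and 812 at 200 nM. In CPM this was 0.88, 1.53 and 0.759 in DMSO, 59.5, 394 and 51.8 at 150 nM and 96.4, 671 and 94.98 at 200 nM, a change of 6.86 (SE 0.97, adjusted p = 0.000212). Replicate 2 was far above the other replicates at each dose, so that the group SD exceeds the mean (168 ± 195 CPM at 150 nM, SD, n = 3). Precision weights ended the call at 150 nM (adjusted p = 0.0731).

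CXCL1, a related chemokine and also among the 10 largest rises, stood at 4.4, 3.94 and 3.29 CPM in DMSO, 26.6, 258 and 69.5 at 150 nM and 40.8, 374 and 99.5 at 200 nM (4.56, SE 0.91, adjusted p = 0.00198), with replicate 2 highest again and replicate 1 lowest. Its neighbours CXCL2 and CXCL3 share much of its sequence, so reads between the 3 may have been split by the counting. They changed by 2.3 (SE 0.60, adjusted p = 0.01) and 3.08 (SE 0.63, adjusted p = 0.00216) and are named after their values were seen. IL6, a cytokine of inflammation, went from 3 reads to 449, a ratio of 84.3 (28.7 to 411), and LIF, of the same family, had 6, 9 and 13 reads in DMSO, 51, 155 and 65 at 150 nM and 78, 172 and 69 at 200 nM (3.2, SE 0.50, adjusted p = 0.000271). IL11, a further member, rose less, from 0.33, 0.161 and 0.506 to 2.498, 2.1 and 1.28 and 2.902, 3.31 and 2.34 CPM (2.31, SE 0.34, adjusted p = 0.000134). CSF2, for the growth factor GM-CSF, had 0 reads in DMSO and 358 in the treated libraries, at least 67.3-fold higher against a floor of 3 reads over the DMSO group. It is named after its values were seen.

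The promoters of the chemokines and of IL6 are shown because these genes moved together and because NF-kB sites are read from such sequence. Each stretch is the 140 bases before the start of the gene in the RefSeq table of build GRCh38.p14, 5′ to 3′ on the gene's strand. Capitals mark matches to the NF-kB type motifs (GGG, any 2 bases and TTTCC, or GGAANTTCC) and to the AP-1 type motif TGANTCA, searched on both strands. The first 2 motifs overlap each other where both match. Positions are chr4:73740429-73740568 (plus strand) for IL8, chr4:73869253-73869392 (plus) for CXCL1, chr4:74099196-74099335 (minus) for CXCL2, chr4:74038690-74038829 (minus) for CXCL3 and chr7:22727060-22727199 (plus) for IL6.
IL8: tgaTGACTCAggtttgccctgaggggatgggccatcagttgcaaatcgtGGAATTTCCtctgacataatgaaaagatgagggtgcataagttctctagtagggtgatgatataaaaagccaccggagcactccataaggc
CXCL1: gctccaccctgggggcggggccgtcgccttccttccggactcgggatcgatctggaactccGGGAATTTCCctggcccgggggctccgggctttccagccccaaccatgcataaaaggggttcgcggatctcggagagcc
CXCL2: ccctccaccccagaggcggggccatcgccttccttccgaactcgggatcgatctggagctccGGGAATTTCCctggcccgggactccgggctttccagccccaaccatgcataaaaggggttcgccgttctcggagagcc
CXCL3: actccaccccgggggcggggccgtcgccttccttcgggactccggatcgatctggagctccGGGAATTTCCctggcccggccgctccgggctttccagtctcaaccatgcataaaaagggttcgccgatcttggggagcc
IL6: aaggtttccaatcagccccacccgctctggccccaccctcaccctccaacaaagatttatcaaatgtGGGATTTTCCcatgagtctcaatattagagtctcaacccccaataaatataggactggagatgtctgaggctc

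In the 3 CXCL genes the match begins 78 or 79 bases before the start, in IL8 91 bases and in IL6 73 bases before it, and the IL8 stretch also holds TGACTCA. Within 250 bases before a start, 3.49% of the 10698 tested genes that the promoter table covers hold either NF-kB type motif. Of the NF-kB induced cytokines and chemokines with a promoter in the table, 9 of 15 (60%) do. In the list of NF-kB subunits and feedback inhibitors, which also holds genes such as SOD2 and IER3, 10 of 17 (58.8%) do. These lists were written from known NF-kB genes, so the shares describe the lists, and a match is a stretch of letters and not a measured site. TGANTCA is held by 6.96% of tested genes, by 3 of 15 of the cytokines and by 0 of 20 AP-1 and immediate early genes.

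Over the 18 NF-kB induced cytokines and chemokines tested, 14 were higher and 1 lower (median 2.75). In DMSO 10 of the 18 lay under the filter on low reads, so nothing is read from that count. Summed over 20 genes of the list, the level was 183, 143 and 166 CPM in DMSO, 230.1, 1085 and 394 at 150 nM and 300.4, 1537 and 512.5 at 200 nM. All treated sums lay above DMSO, and replicate 2 stood apart at both doses. IL8 and CXCL1, both among the 10 largest rises, make up much of that difference, and the sum was not taken without them. CSF1, for a macrophage growth factor, was the member that fell (-0.49, SE 0.14, adjusted p = 0.0122), and it is named for that after its value was seen. It was not called with library totals, with the deposited values, without DMSO replicate 1 or without replicate 1 of both doses.

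The list of genes that make up and restrain the NF-kB pathway also holds other genes, such as SOD2 and IER3. It can be read without that limit on low reads, since all 20 passed the filter in DMSO. Of them 16 were higher and 0 lower (median 0.95), beside 20% of all genes. The list was chosen with earlier results of these data known, so the count describes the list. RELB, a subunit of the pathway, was at 5.61, 8.29 and 7.17 CPM in DMSO, 35.3, 38.9 and 21.1 at 150 nM and 43.99, 42.3 and 22.2 at 200 nM (2.2, SE 0.24, adjusted p = 1.45e-05). NFKB2, the precursor of its partner, changed by 1.5 (SE 0.21, adjusted p = 9.81e-05). SOD2, the mitochondrial superoxide dismutase, went from 383, 421 and 308 CPM to 1089, 2741 and 1845 and 1284, 2722 and 2016 (2.32, SE 0.33, adjusted p = 0.000183), and IER3, an early survival gene, from 14.7, 10.1 and 9.95 to 70.6, 120.1 and 84.8 and 78.7, 151 and 110.3 (3.1, SE 0.35, adjusted p = 4.36e-05). The feedback inhibitors TNFAIP3 and NFKBIA, named after their values were seen, rose by 2.6 (SE 0.40, adjusted p = 0.000374) and 0.99 (SE 0.18, adjusted p = 0.000755).

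AP-1 and immediate early genes were also mostly higher, with 21 of 29 higher and 0 lower, beside 20% and 18.4% of all genes. Their median was 1.32, and 3 members lay under the filter in DMSO. ATF3, a stress factor that binds AP-1 and related sites, went from 3.19, 2.74 and 2.53 CPM to 62.4, 54.1 and 22.98 at 150 nM and 71.7, 66.4 and 30.9 at 200 nM (3.99, SE 0.30, adjusted p = 2.35e-06). FOSL1, the AP-1 subunit FRA1, stood at 12.5, 8.29 and 10.2 CPM in DMSO, 109, 102 and 74.04 at 150 nM and 122, 109.6 and 97.8 at 200 nM (3.29, SE 0.29, adjusted p = 5.4e-06). PHLDA1 and JUNB changed by 3.11 (SE 0.25, adjusted p = 2.94e-06) and 1.13 (SE 0.13, adjusted p = 2.33e-05). Treated and control libraries of these 4 genes do not overlap, but the 4 were picked for a small adjusted p. Over all genes 20.6% lay higher in the same way. In ATF3 and FOSL1 replicate 3 had the lowest treated level at each dose.

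NRF2 targets and the thioredoxin and glutathione systems had 14 of 29 members higher and 4 lower (median 0.77), beside 20% and 18.4% of all genes. In DMSO 3 members lay under the filter. Without replicate 2 of both doses 2 were lower. HMOX1, which breaks down heme, rose from 14.4, 18.9 and 12.3 CPM to 267, 202 and 129 and 323, 235 and 163 (3.79, SE 0.32, adjusted p = 5.63e-06). TXNRD1, the cytosolic thioredoxin reductase, changed with little spread, at 96.1, 92.5 and 96.3 CPM in DMSO, 199, 176 and 193 at 150 nM and 204, 194 and 205 at 200 nM (1.04, SE 0.10, adjusted p = 6.55e-06). FTH1, the iron storage heavy chain, rose by 1.3 (SE 0.098, adjusted p = 1.22e-06), although reads of its many pseudogene copies may be mixed with it. AKR1B10, an aldehyde reductase, had 2, 4 and 8 reads in DMSO, 60, 59 and 53 at 150 nM and 56, 67 and 69 at 200 nM (3.48, SE 0.32, adjusted p = 4.52e-06).

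GCLM, for a subunit of the enzyme that starts glutathione synthesis, and NQO1, a quinone reductase, changed by 1.1 (SE 0.13, adjusted p = 1.89e-05) and 1.41 (SE 0.15, adjusted p = 9.77e-06). TXNIP, which binds and inhibits thioredoxin, moved the other way, from 342, 393 and 276 CPM to 68.6, 80.8 and 94.4 and 81.8, 51.4 and 69.5 (-2.19, SE 0.38, adjusted p = 0.000853). GCLM, NQO1 and TXNIP were picked after their values were seen. The promoters of TXNRD1 (chr12:104215639-104215778, plus strand, 1 of 2 starts listed) and GCLM (chr1:93909431-93909570, minus strand) are shown as above, with the antioxidant response type motif TGACNNNGC in capitals, on either strand.
TXNRD1: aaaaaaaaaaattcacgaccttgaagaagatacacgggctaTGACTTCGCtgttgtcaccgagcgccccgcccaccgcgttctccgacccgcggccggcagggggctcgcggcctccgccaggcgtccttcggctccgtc
GCLM: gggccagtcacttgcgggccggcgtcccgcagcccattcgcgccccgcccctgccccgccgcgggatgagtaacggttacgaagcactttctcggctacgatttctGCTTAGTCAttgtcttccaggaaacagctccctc

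That motif is common: 15.8% of tested genes with a promoter hold it within 250 bases, and so do 5 of 20 (25%) of the NRF2 and thioredoxin genes.

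Heat shock chaperones were mostly higher, and several chaperones of the endoplasmic reticulum were lower. Of 22 heat shock genes 13 were higher and 3 lower (median 0.6), beside 20% and 18.4% of all genes, with 1 under the filter. HSPA1A, the inducible HSP70 (whose near-identical copy HSPA1B may share its reads), stood at 24.6, 15.3 and 24.96 CPM in DMSO, 83.02, 75.3 and 64.9 at 150 nM and 84.2, 70.1 and 71.7 at 200 nM (1.81, SE 0.29, adjusted p = 0.000356). HSP90AA1 and HSP90AB1, the cytosolic HSP90 genes, rose by 0.86 (SE 0.15, adjusted p = 0.000415) and 0.54 (SE 0.11, adjusted p = 0.00113), and HSPE1, of the mitochondrial chaperonin, by 1.15 (SE 0.23, adjusted p = 0.00139). In the list of ATF4 targets and the unfolded protein response, 4 of 26 were higher and 9 lower (median -0.36), beside the same shares of all genes.

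HSPA5, the chaperone BiP of the endoplasmic reticulum, fell from 690.1, 582 and 654 CPM to 292, 260.5 and 265 and 302, 286 and 286 (-1.19, SE 0.11, adjusted p = 3.66e-06), without overlap. CALR, calreticulin, was at 2363, 2057 and 2099 CPM in DMSO, 946, 859 and 849 at 150 nM and 947, 805 and 834 at 200 nM (-1.31, SE 0.13, adjusted p = 6.72e-06), and PDIA4, a disulfide isomerase, changed by -1.0 (SE 0.11, adjusted p = 1.36e-05). CEBPB, a factor downstream of ATF4 and of cytokines, rose (0.80, SE 0.092, adjusted p = 2.12e-05). The stress factor DDIT3, picked after its values were seen, split the replicates: it stood at 16.1, 13.6 and 13.1 CPM in DMSO, 33.4, 18.5 and 10.7 at 150 nM and 55.5, 23.1 and 8.07 at 200 nM, so that replicate 1 rose with dose, replicate 3 lay under DMSO, and no call was made (adjusted p = 0.445). ATF4, named in the same way, did not pass (-0.51, adjusted p = 0.124).

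Metallothioneins, which bind zinc and respond to metals and oxidants, were listed with zinc transporters. Of the 7 genes tested 2 were higher and 0 lower, beside 20% and 18.4% of all genes. By library totals 5 were higher, and 4 were with the deposited values, with the replicate number as a block, or with the DMSO libraries of both days as control. MT1X and MT1L, which are close copies of each other, changed by 1.1 (SE 0.34, adjusted p = 0.0185) and 1.07 (SE 0.39, adjusted p = 0.04). The treated and control libraries of MT1X overlap, and neither call held with precision weights, without DMSO replicate 1, or without replicate 2 or 3 of both doses, with an adjusted p up to 0.0968 for MT1X and 0.176 for MT1L. MT2A had 48.3, 88.4 and 51.2 CPM in DMSO, 71.8, 119.6 and 96.2 at 150 nM and 80.3, 124 and 106 at 200 nM and did not pass (adjusted p = 0.0889), nor did the zinc importer SLC39A10 (adjusted p = 0.098).

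Some targets of p53 also split by replicate, and others did not. Of 24 genes 10 were higher and 1 lower (median 0.59), beside 20% and 18.4% of all genes. AEN, an apoptotic nuclease, rose evenly, at 18.8, 14.2 and 13.3 CPM in DMSO, 44.01, 52.02 and 49.04 at 150 nM and 51.2, 57.1 and 58.95 at 200 nM (1.75, SE 0.17, adjusted p = 6.38e-06). PMAIP1, the death protein NOXA, went from 19.7, 16.8 and 16.4 to 71.4, 71.4 and 45.7 and 95.3, 92.7 and 48.5 CPM (1.94, SE 0.20, adjusted p = 1.22e-05), and GDF15, a stress cytokine, from 3.3, 1.93 and 2.61 to 28.9, 47.6 and 22.3 and 35.2, 53.9 and 34.7 (3.7, SE 0.44, adjusted p = 5.71e-05). PLK3, a stress kinase, changed by 1.81 (SE 0.30, adjusted p = 0.000343).

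The best known members did not follow them in every library. CDKN1A, the cell cycle inhibitor p21, was at 182, 138 and 126 CPM in DMSO, 141, 243 and 277 at 150 nM and 146, 243 and 336 at 200 nM (adjusted p = 0.253), and MDM2, which degrades p53, at 522, 488 and 330.1 CPM in DMSO, 437, 963 and 869.9 at 150 nM and 409, 1012 and 1028 at 200 nM (adjusted p = 0.308). In both genes replicate 1 lay within the DMSO range at each dose and replicates 2 and 3 above it. TP53I3 fell (-1.19, SE 0.27, adjusted p = 0.00309). CDKN1A, MDM2 and TP53I3 were picked after their values were seen. Summed over the 24 genes, replicate 1 held 1826 and 1830 CPM at 150 and 200 nM, between the DMSO values of 1431 and 1858, whereas replicates 2 and 3 held 3030 to 3467. This sum contains CDKN1A and MDM2, so it is not separate from them. HMLE cells are immortalised with a viral antigen that binds p53, which is background to the list.

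Of 22 genes of the BCL2 family and the death receptors, 7 were higher and 3 lower, with 3 under the filter. Over all genes 20% were higher and 18.4% lower. Survival and death members rose side by side. BCL2L1, for the survival protein BCL-XL, was at 44.2, 31.4 and 35.9 CPM in DMSO, 90.6, 76.2 and 73.6 at 150 nM and 87.6, 82.3 and 84.7 at 200 nM (1.16, SE 0.17, adjusted p = 0.000127), and BCL2 changed by 1.18 (SE 0.23, adjusted p = 0.00101). BCL2L11, for the death protein BIM, rose by 1.01 (SE 0.17, adjusted p = 0.000395), while TNFRSF1A, a receptor of tumour necrosis factor, fell (-0.66, SE 0.13, adjusted p = 0.00123). Without replicate 2 of both doses, or without DMSO replicate 3, 4 members were higher, so nothing is read from the count of higher members.

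Interferon-stimulated genes were mixed, with 14 of 35 higher and 3 lower, beside 20% and 18.4% of all genes. Their median was 0.44, and 3 lay under the filter. Without replicate 3 of both doses 6 were lower. IRF1, a factor induced by interferon and by NF-kB alike, rose from 19.4, 16.5 and 19.6 CPM to 97.7, 133 and 80.5 and 107, 134 and 99.7 (2.52, SE 0.21, adjusted p = 2.82e-06). MX1, an antiviral GTPase, was at 6.49, 6.44 and 5.82 CPM in DMSO, 17.2, 21.4 and 13.8 at 150 nM and 17.9, 25.98 and 21.9 at 200 nM (1.6, SE 0.24, adjusted p = 0.000133), and RSAD2, the antiviral enzyme viperin, went from 3 reads to 111, a ratio of 20.9 (6.95 to 103). STAT2, which carries the interferon signal itself, fell by 1.03 on the log2 scale (SE 0.12, adjusted p = 2.8e-05), at 92.6, 89.2 and 81.2 CPM in DMSO against 35.6, 42.5 and 48.8 and 37.2, 43.7 and 49.95. Of 7 interferon genes listed, 1 was measured: IFNE, of mucosal epithelia, was lower (-1.16, SE 0.39, adjusted p = 0.0276), and this call was lost with library totals alone, without DMSO replicate 2 or 3, without 150 nM replicate 2 or 3, and without replicate 1 of both doses.

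**Figure D2:**
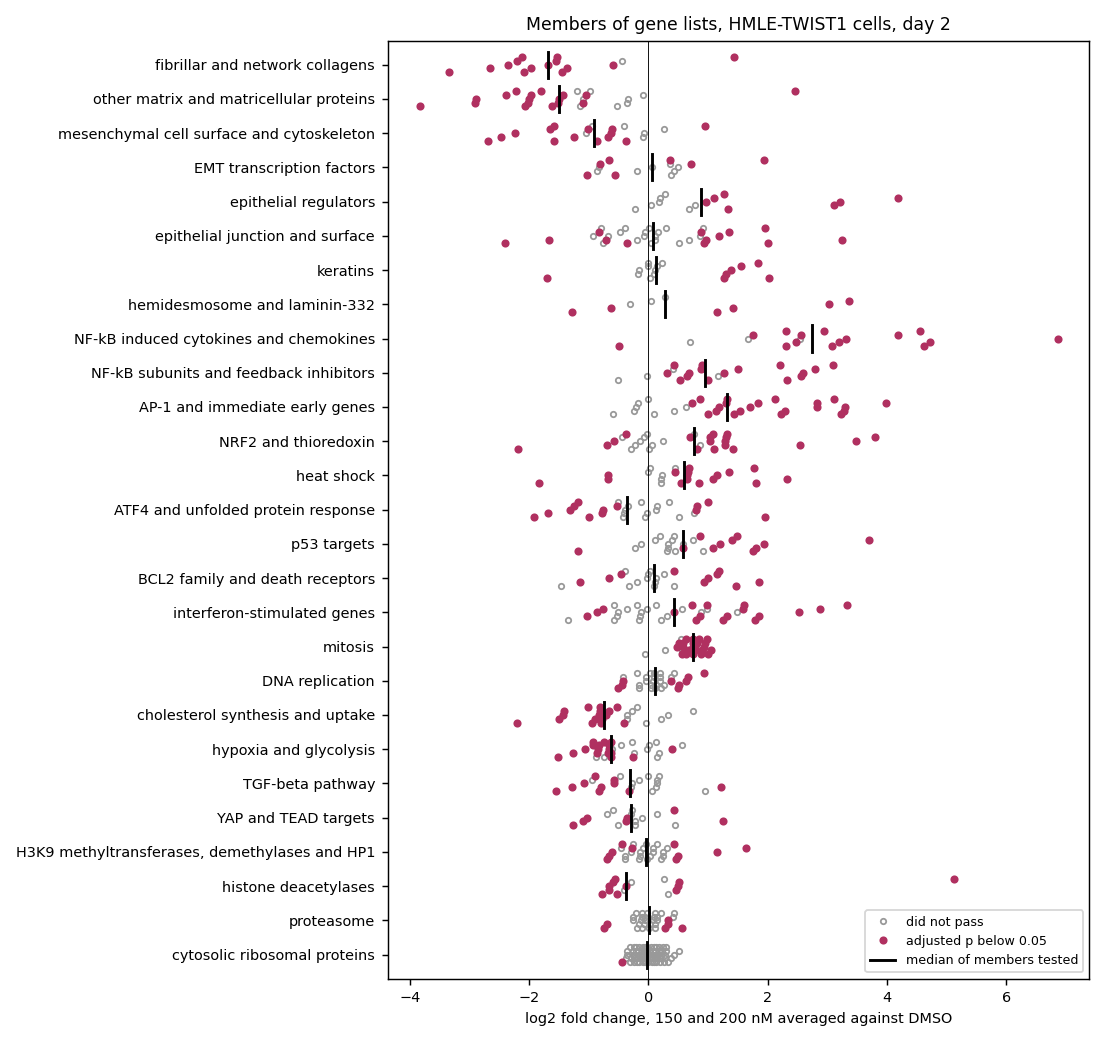
Log2 fold change of each tested member of 27 gene lists, 150 and 200 nM averaged against DMSO (n = 3 against 3). Filled points passed an adjusted p of 0.05 and black bars are list medians. Collagens and other matrix genes lie to the left, with medians of -1.68 and -1.49, mitosis genes lie in a narrow band near 0.75, and ribosomal proteins sit around 0.

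RNA of mitosis genes was higher at these doses. Of 27 members 23 were higher and 0 lower, in the narrow range of -0.05 to 1.04 with a median of 0.75, beside 20% of all genes. BUB1B, of the spindle checkpoint, stood at 203, 193 and 222 CPM in DMSO, 514, 423 and 350 at 150 nM and 445, 399 and 367 at 200 nM (1.0, SE 0.14, adjusted p = 7.41e-05). MKI67, the proliferation antigen, went from 1607, 1462 and 1632 CPM to 3250, 2548 and 2463 and 3006, 2400 and 2264 (0.75, SE 0.13, adjusted p = 0.000438). CENPF and NUSAP1, of the kinetochore and the spindle, changed by 0.75 (SE 0.11, adjusted p = 0.00013) and 0.77 (SE 0.12, adjusted p = 0.000239). Summed over the list, replicate 1 was highest (14430 and 13110 CPM) and replicate 3 lowest (10500 and 10430), against 6678 to 8000 in DMSO.

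Genes of DNA replication did not follow as a list, with 6 of 30 higher and 3 lower and a median of 0.1. Over all genes 20% were higher and 18.4% lower, so nothing is read from these counts. E2F1, the factor that opens S phase, rose by 0.93 (SE 0.17, adjusted p = 0.000818), RRM2, of ribonucleotide reductase, by 0.63 (SE 0.15, adjusted p = 0.00483), and RFC3, of the clamp loader, by 0.50 (SE 0.12, adjusted p = 0.00533). MCM4, of the replicative helicase, fell (-0.43, SE 0.11, adjusted p = 0.00785), with all treated libraries (350.5 to 409 CPM) under DMSO (475 to 581 CPM). With library totals alone 11 were higher and 0 lower, and the call for MCM4 was lost, so the falls hold only relative to the joint scaling. Without DMSO replicate 2 there were 3 higher, and without DMSO replicate 1 or 3, or replicate 2 of both doses, 1 lower.

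Several metabolic groups were lower. Of 24 genes of cholesterol synthesis and uptake, 0 were higher and 16 lower (median -0.74), beside 20% and 18.4% of all genes. SQLE, squalene epoxidase, was at 179, 226 and 249 CPM in DMSO, 130.2, 128 and 111 at 150 nM and 134, 128 and 110.4 at 200 nM (-0.81, SE 0.12, adjusted p = 0.000191). SREBF2, the factor that drives the pathway, was at 138, 121 and 156 CPM in DMSO, 87.8, 93.8 and 93.7 at 150 nM and 84.4, 74.3 and 89.4 at 200 nM (-0.66, SE 0.11, adjusted p = 0.000352).

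Hypoxia and glycolysis genes were 16 of 29 lower and 1 higher (median -0.64), beside 18.4% and 20% of all genes. P4HA1, the collagen prolyl hydroxylase, fell from 654, 565 and 621 CPM to 231, 226 and 188 and 231, 224 and 191 (-1.51, SE 0.17, adjusted p = 1.55e-05). SLC2A1, the glucose transporter GLUT1, was at 66.1, 58.99 and 62.1 CPM in DMSO, 32.7, 39.6 and 32.7 at 150 nM and 34.8, 40.8 and 29.6 at 200 nM (-0.84, SE 0.10, adjusted p = 3.86e-05). BNIP3L, of mitophagy, and EGLN1, the oxygen sensor, changed by -0.83 (SE 0.10, adjusted p = 3.58e-05) and -0.67 (SE 0.089, adjusted p = 5.88e-05). The aldolase ALDOA was the member that rose (0.40, SE 0.15, adjusted p = 0.0396), named for that after its value was seen, and it was not called when any 1 DMSO library, replicate 2 of both doses or 200 nM replicate 3 was left out. Scaling by totals gave 10 lower and 3 higher.

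In the TGF-beta pathway, which drives matrix genes, 9 of 22 members were lower and 1 higher (median -0.31), beside 18.4% and 20% of all genes. The ligands TGFB1 and TGFB3 fell (-0.58, SE 0.098, adjusted p = 0.000407, and -1.08, SE 0.22, adjusted p = 0.00155, in that order), with TGFB1 at 96.2, 103 and 101 CPM in DMSO, 68.8, 64.1 and 68.5 at 150 nM and 72.4, 61.6 and 67.96 at 200 nM. BAMBI, a decoy receptor that the pathway itself induces, was at 7.81, 6.68 and 6.75 CPM in DMSO against 3.56, 2.86 and 2.23 and 3.81, 2.67 and 1.99 CPM (-1.29, SE 0.30, adjusted p = 0.00347). TGIF1, a corepressor of SMAD targets, rose from 19.6, 16.7 and 21.8 to 42.8, 47.4 and 38.4 and 40.3, 50.03 and 52.8 CPM (1.22, SE 0.17, adjusted p = 0.000103). The count of lower members was 5 with library totals, with the deposited values, without replicate 1 or 2 of both doses, and without DMSO replicate 1 or 2.

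Targets of YAP and TEAD were 5 of 17 lower and 2 higher, beside 18.4% lower and 20% higher of all genes. With library totals, with the deposited values or without replicate 1 of both doses 3 were lower. Of the 2 higher members 0 or 1 were called in every fit that left out a DMSO library or a replicate of both doses. ARHGEF17, a guanine nucleotide exchange factor, and the membrane proteins CRIM1 and MYOF changed by -1.26 (SE 0.16, adjusted p = 4.5e-05), -1.03 (SE 0.14, adjusted p = 9.45e-05) and -1.09 (SE 0.17, adjusted p = 0.000177). The factor TEAD1 fell by 0.36 on the log2 scale (SE 0.10, adjusted p = 0.0115), a call that was lost with library totals alone and without replicate 1 of both doses, among others (adjusted p up to 0.201).

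Among 15 histone deacetylases 4 were higher and 7 lower, beside 20% and 18.4% of all genes, and 1 gene stood far outside the rest. Scaled by library totals 4 were lower, so the excess of lower members depends on the scaling. HDAC9, a class IIa enzyme, had 6, 23 and 28 reads in DMSO, 771, 754 and 203 at 150 nM and 1067, 841 and 304 at 200 nM, which is 0.66, 1.85 and 2.36 CPM in DMSO against 74.1, 71.97 and 21.6 and 96.8, 89.9 and 35.6 (5.13, SE 0.54, adjusted p = 3.1e-05). Replicate 3 held the lowest treated level at each dose. HDAC9 is among the 10 largest rises, for which a lack of overlap with DMSO was required. HMLE cells in DMSO held 46.8 ± 6.25 CPM. HDAC2 rose by 0.47 (SE 0.083, adjusted p = 0.0005) and HDAC5 fell by 0.78 on the log2 scale (SE 0.15, adjusted p = 0.000957).

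The other largest rises belong to no single list. FER1L6, a membrane protein of the ferlin family, went from 2 reads in each DMSO library to 17.97, 33.6 and 22.2 and 21.7, 37.8 and 31.2 CPM (6.16, SE 0.35, adjusted p = 1.21e-07), and HMLE cells held 0.359 ± 0.0787. LUCAT1, a long noncoding RNA, was at 0.55, 0.724 and 0.759 CPM in DMSO, 29.4, 28.4 and 22.98 at 150 nM and 26.7, 33.7 and 31.4 at 200 nM (5.06, SE 0.24, adjusted p = 2.62e-08). IL1RL1, the receptor of interleukin 33, was at 2.53, 3.22 and 0.927 CPM in DMSO, 62.6, 70.5 and 30.0 at 150 nM and 84.6, 96.0 and 46.1 at 200 nM (4.8, SE 0.52, adjusted p = 3.1e-05). XDH, for xanthine dehydrogenase of purine breakdown, rose from 0.77, 0.483 and 0.675 to 14.8, 25.9 and 16.6 and 16.7, 32.3 and 29.5 CPM (4.72, SE 0.37, adjusted p = 2.52e-06).

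MYRIP, which links vesicles to myosin, and MYH15, a myosin heavy chain, had changes of 4.77 (SE 0.73, adjusted p = 0.000281) and 4.39 (SE 0.59, adjusted p = 9.9e-05). Their replicates differed in opposite ways: MYRIP was lowest in replicate 1 (6.15, 15.1 and 16.1 and 5.71, 18.6 and 23.9 CPM) and MYH15 in replicate 3 (16.1, 18.8 and 4.68 and 19.1, 20.9 and 7.25). RPLP0P2, annotated as a pseudogene of the ribosomal protein RPLP0, changed by 5.02 (SE 0.38, adjusted p = 2.29e-06), and reads of its parent gene may be mixed with it.

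Beside the genes named above, the 10 largest falls hold RP11-572C15.6, a clone-named gene, with the lowest value (-4.16, SE 0.43, adjusted p = 1.9e-05), at 114, 145 and 73.4 CPM in DMSO against 4.13, 5.82 and 11.1 and 3.45, 3.74 and 10.53 CPM. CADM3, a cell adhesion molecule, was at 535, 640.1 and 490 CPM in DMSO, 49.3, 56.1 and 131 at 150 nM and 45.3, 38.9 and 104 at 200 nM (-3.11, SE 0.50, adjusted p = 0.000478). WISP2, a secreted matricellular protein, and KIAA1199, which helps to break down hyaluronan, changed by -3.48 (SE 0.79, adjusted p = 0.00421) and -3.27 (SE 0.53, adjusted p = 0.000462). WISP2 stood at 23.4, 25.4 and 24.03 CPM in DMSO, 0.961, 1.24 and 7.87 at 150 nM and 0.907, 1.18 and 5.38 at 200 nM, with replicate 3 highest among the treated. SLC38A4, an amino acid transporter, and FMO6P, a monooxygenase pseudogene, fell by 2.92 and 3.73 on the log2 scale (SE 0.38 and 0.47, adjusted p = 6.2e-05 and 4.36e-05).

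Genes of the ribosome and the proteasome were listed as groups not chosen for a tie to the transition. Of 74 cytosolic ribosomal protein genes 0 were higher and 1 lower (median -0.03). That 1 was RPL4 (-0.45, SE 0.12, adjusted p = 0.0103), and RPS2, RPS7 and RPL39 did not pass (adjusted p = 0.0554, 0.0564 and 0.0573). By library totals, 11 were higher and 0 lower. With the DMSO libraries of both days as control 1 was higher and 11 lower, and without replicate 3 of both doses 6 were lower. The call for RPL4 was lost with library totals, with the deposited values and without replicate 2 of both doses. Of 31 proteasome genes 4 were higher and 2 lower, beside 20% and 18.4% of all genes. Library totals gave 9 higher and the DMSO libraries of both days as control 7. PSMB5 and PSMB6, catalytic subunits, fell (-0.75, SE 0.14, adjusted p = 0.000919, and -0.69, SE 0.17, adjusted p = 0.00558, in that order), and PSMA6 and PSMD6 rose (0.56, SE 0.16, adjusted p = 0.0136, and 0.28, SE 0.10, adjusted p = 0.0386, in that order). No proteasome gene was called higher without replicate 1 or without replicate 2 of both doses, and 1 or 2 were without any 1 DMSO library or without 200 nM replicate 2 or 3.

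Markers of cells that should not be in the culture were counted as well. Of 8 leukocyte markers tested 4 were higher and 0 lower, with 4 under the filter in DMSO, so nothing is read from that count. The summed level of 10 genes was 18.7 to 21.8 CPM in DMSO, 31.1 to 65.4 at 150 nM and 37.55 to 87.9 at 200 nM. ITGAM, of the integrin of myeloid cells, went from 2 reads to 335, a ratio of 94.4 (25.9 to 783), at 4.71, 6.01 and 3.51 and 5.89, 8.34 and 5.498 CPM. PTPRC, the pan-leukocyte antigen CD45, went from 2 to 91 reads, a ratio of 25.6 (6.9 to 215). LAPTM5 and LCP1, a lysosomal and an actin-bundling protein of leukocytes, changed by 3.17 (SE 0.44, adjusted p = 8.91e-05) and 3.21 (SE 0.62, adjusted p = 0.00161). CD14, of monocytes and chosen after its values were seen, did not pass (1.98, 2.58 and 1.94 CPM in DMSO, 1.63, 2.004 and 3.404 at 150 nM and 1.54, 2.03 and 1.64 at 200 nM, adjusted p = 0.761).

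Of 4 endothelial markers tested 3 were higher, with 2 under the filter in DMSO, so nothing is read from that count. ERG, a transcription factor, VWF, the clotting factor carrier, and ROBO4, a guidance receptor, changed by 3.4 (SE 0.37, adjusted p = 1.41e-05), 2.34 (SE 0.31, adjusted p = 6.49e-05) and 2.2 (SE 0.35, adjusted p = 0.000235), whereas the receptor KDR did not pass (-0.68, adjusted p = 0.397). The summed level of 7 genes was 3.54 to 5.94 CPM in DMSO and 12.4 to 25.3 in the treated libraries. Of 5 adipocyte markers tested 3 lay under the filter in DMSO. PLIN4, a lipid droplet protein, was called (1.92, SE 0.40, adjusted p = 0.00183), and CIDEC, PPARG and LPL were not (adjusted p = 0.282, 0.298 and 0.314). Of 5 germline genes tested 3 were higher, with 3 under the filter, and nothing is read from that count either. DDX4, a helicase of germ cells, went from 2 reads to 105, a ratio of 29.6 (7.99 to 248). PIWIL2 and TEX15 changed by 2.1 (SE 0.35, adjusted p = 0.000368) and 1.98 (SE 0.46, adjusted p = 0.00354), and PIWIL4 did not pass (adjusted p = 0.118). Whether these reads come from HMLE-TWIST1 cells or from others was not tested.

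No gene separated the 2 doses after adjustment. Between 200 and 150 nM no gene was called higher (0%) or lower (0%) by limma, with a smallest adjusted p of 1 and 273 genes at an unadjusted p below 0.05. Because same-numbered libraries of the doses deviated together, the dose libraries were also fitted alone with the replicate number as a block. That fit includes the 100 and 500 nM libraries. Between 200 and 150 nM it called 0 of 17842 genes (0% in each direction), with 513 at an unadjusted p below 0.05. In the median gene its standard error was 0.152.

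The intervals show which sizes of difference remain possible. For FN1 the difference of 200 minus 150 nM was -0.22 with a 95% interval of -0.66 to 0.23, for ZEB1 -0.15 (-0.46 to 0.17) and for TWIST1 -0.15 (-0.47 to 0.17). The interval was wider for IL8, at -0.58 to 2.14 around 0.78, and narrow for FTH1 (-0.17 to 0.099) and ITGB1 (-0.13 to 0.14). For CDH1 it lay above 0 before adjustment, at 0.094 to 1.47 around 0.78, on few reads. In the fit of all day 2 libraries the smallest p values upward were those of LINC00519 (log2 difference 1.38), RP11-875H7.5, with few reads, and HSPB8, a small heat shock protein (1.04). HSPB8 stood at 0.88, 1.29 and 1.43 CPM in DMSO, 0.769, 1.53 and 1.17 at 150 nM and 1.91, 2.78 and 2.92 at 200 nM. Downward they were the pseudogenes FAM149B1P1 and SDCCAG3P1 and the factor BCL11A, all under 2 CPM, and none passed.

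**Figure D3:**
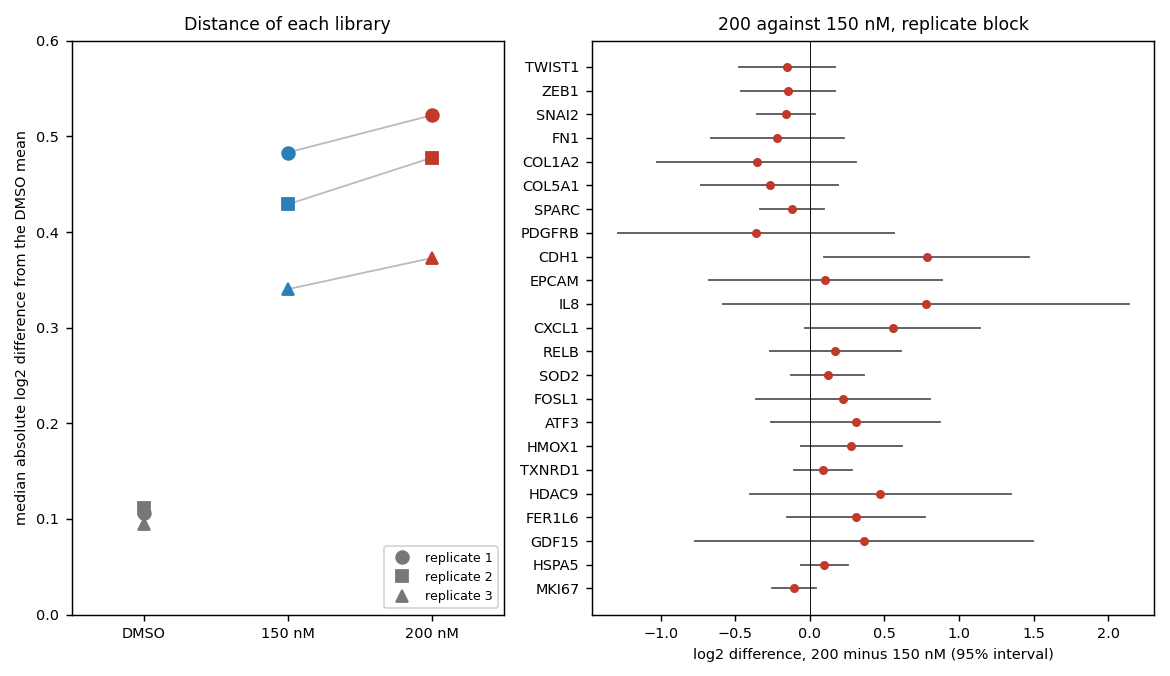
Left, the median over genes of the absolute log2 difference of each library from the DMSO mean, with lines joining libraries of the same replicate number. That mean includes the DMSO libraries, which makes their own values smaller. Right, the log2 difference of 200 minus 150 nM for 23 genes with 95% intervals from the fit of the dose libraries with the replicate number as a block. Each replicate lies farther from DMSO at 200 than at 150 nM (0.522, 0.478 and 0.373 against 0.483, 0.429 and 0.34), and the intervals of FN1, ZEB1, TWIST1 and IL8 include 0.

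Most called genes had the larger change at the higher dose. Of 7208 genes called in the averaged comparison, 5372 had a larger change at 200 than at 150 nM, a count that has no test since both doses share the DMSO libraries. Against the 100 nM libraries, which lie in the same part of the table, 0 genes were called higher (0%) and 0 lower (0%), with a smallest adjusted p of 0.653 and 1417 genes at an unadjusted p below 0.05. With the dose libraries alone and the block these were 0 (0% each way), 0.213 and 2628. The smallest p values belonged to SLC22A14, SYTL3 and RP11-93B14.4 upward and to ZNF395, TTC31 and CDH3 downward. SYTL3, of vesicle traffic, stood at 2.53, 2.62 and 1.89 CPM with 100 nM, 4.71, 4.49 and 2.87 with 150 nM and 5.17, 5.77 and 3.86 with 200 nM, beside 1.1, 1.21 and 1.35 in DMSO. ZNF395, a transcription factor, stood at 43.5, 41.6 and 37.5, 29.2, 31.98 and 31.9 and 25.03, 22.1 and 23.04 CPM, after 83.6, 79.02 and 72.2 in DMSO. RP11-93B14.4 had 0 reads in DMSO and 69 at 150 and 200 nM, at least 13.0-fold higher against the floor of 3 reads.

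The washout experiment, 15 h at 80 nM and then 48 h without the compound, lies inside a single part of the table and shares no library with the comparisons above. Of its 17585 genes 19.4% were higher and 17.2% lower than DMSO of day 4. With library totals alone the share of called genes that were higher was 65.3% in place of 53%. Its values can be set beside those at 150 and 200 nM for the named genes, although dose, exposure and day all differ, so no comparison of size is made.

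Several genes named above were also higher or lower after the washout. IL8 was higher by 5.15 (SE 0.17, adjusted p = 5.54e-10), CXCL1 by 4.59 (SE 0.17, adjusted p = 1.11e-08), FER1L6 by 5.35 (SE 0.35, adjusted p = 1.55e-07), HMOX1 by 3.22 (SE 0.15, adjusted p = 1.11e-08), HDAC9 by 3.58 (SE 0.15, adjusted p = 3.23e-09) and ITGAM by 3.97 (SE 0.34, adjusted p = 1.01e-06). FN1 and COL1A2 were lower (-1.02, SE 0.18, adjusted p = 0.00231, and -2.02, SE 0.44, adjusted p = 0.012, in that order), as were ZEB1 (-0.70, SE 0.071, adjusted p = 4.52e-06) and MFAP4 (-3.37, SE 0.32, adjusted p = 2.8e-06). For TRIM28 and TXNRD1 the values were 1.05 (SE 0.081, adjusted p = 4.54e-07) and 0.85 (SE 0.077, adjusted p = 1.97e-06). These genes passed in both experiments and in the same direction.

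Some genes that were called at 150 and 200 nM did not pass after the washout. TWIST1 had 0.35 (SE 0.16, adjusted p = 0.131), while SNAI2 had -0.034 (SE 0.081, adjusted p = 0.787). HSPA5 had -0.091 (SE 0.065, adjusted p = 0.306) and SLC2A1 -0.0022 (SE 0.11, adjusted p = 0.995). CDH1, IL11 and PTPRC had 0.53 (SE 0.30, adjusted p = 0.197), -0.079 (SE 0.32, adjusted p = 0.877) and -0.48 (SE 0.42, adjusted p = 0.407). BCL2L11 passed in the opposite direction (-0.33, SE 0.095, adjusted p = 0.0131), as did PSMB6 (0.35, SE 0.12, adjusted p = 0.0334). The difference between the experiments was not tested.

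In the washout comparison 19.4% of all genes were higher and 17.2% lower. By list, it gave 22 of 27 mitosis genes higher and 0 lower, and 17 of 29 NRF2 and thioredoxin genes higher and 4 lower. The list of NF-kB subunits and inhibitors had 13 of 20 higher and 0 lower. Of 15 collagens 0 were higher and 11 lower, and of 24 other matrix genes 0 and 16. Cholesterol genes were 1 higher and 10 lower of 24, and hypoxia and glycolysis genes 3 and 8 of 29. Proteasome genes, of which 4 were higher at 150 and 200 nM, were 18 of 31 higher and 0 lower here. These list counts were not retaken with library totals, which moved the share of called genes that were higher from 53 to 65.3%.

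**Figure D4:**
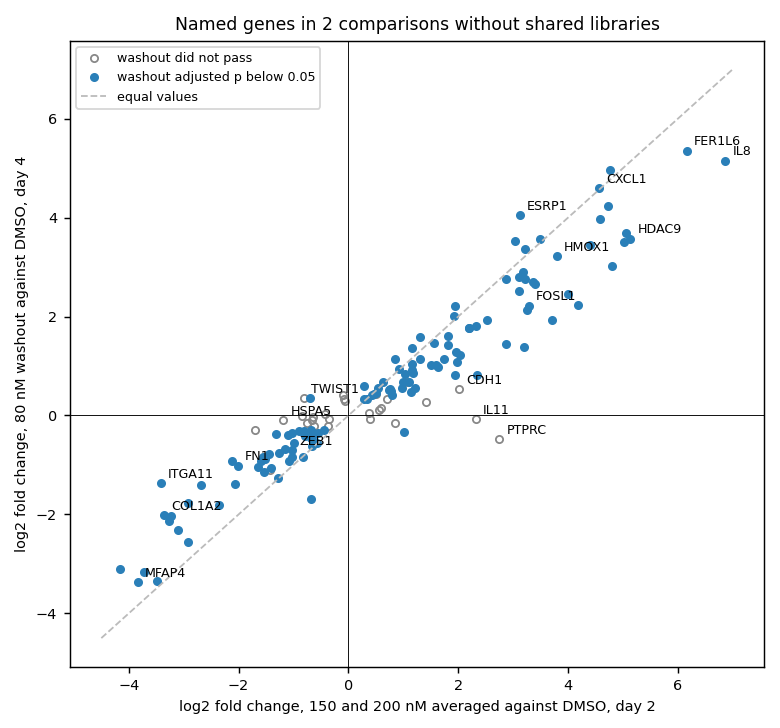
Log2 fold change after the 80 nM washout against DMSO of day 4, plotted over that of 150 and 200 nM averaged against DMSO of day 2, for the 150 named genes tested in both. Filled points passed an adjusted p of 0.05 in the washout comparison, and the dashed line marks equal values. IL8, FER1L6 and CXCL1 lie far up on the right and MFAP4 and COL1A2 far down on the left, whereas TWIST1, HSPA5, IL11 and PTPRC lie near 0 on the washout axis.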

How the data were processed

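The authors deposited log2 RPKM values per gene, in a table whose DMSO libraries (with the 80 nM washout, 15 libraries) and dose libraries (12) were normalised apart. Reads were aligned with STAR and counted with HTSeq on hg19 (GRCh37), per the submitters' processing notes. Versions and the strand setting of the counting are not given in the sources used here. A further 81 value columns that match no sample were not used.

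From the steps of the deposited log2 values whole reads were recovered for 100% of values, within 2.3e-08 of a whole read. Of 21041 symbols found in both parts, the 21038 with the same gene length in each were joined. Reads of the day 2 libraries (18 in 6 groups) were scaled jointly by a trimmed mean of log ratios (30% of ratios and 5% of levels trimmed) and turned into log2 CPM with a prior count of 2. A gene was kept if 3 or more libraries held the equivalent of 10 reads (1.01 CPM) and its reads summed to 15 or more. Group means were compared with limma 3.58.1 in R 4.3.3 (intensity trend, robust moderation, statmod 1.5.0), with Benjamini-Hochberg adjustment and a threshold of 0.05. Since the deposited unit is log2, no count model was run. For both doses together, libraries of the same number at 150 and 200 nM were averaged first (15 values in 5 groups). The day 4 washout was fitted on its own 9 libraries, with HMLE cells in DMSO among them. The fit was tested on simulated data.

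Members and gene lists were chosen with earlier results of these data known. Named genes are a fixed set (TWIST1, SUV39H1, SUV39H2 and markers of the transition), the 10 largest rises and falls by the limits given with IL8, up to 4 tested members of each of 33 lists with the smallest adjusted p, and the 3 smallest p in each direction between doses. A gene of chromosome Y or the X inactivation transcript is never named. Some genes that the rule names are not reported here. Genes outside the rule are said to be chosen after their values were seen. Ratios for genes with at most 3 DMSO reads in all carry exact 95% counting intervals, which cover counting error only.

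The labels number the replicates. Deviations from group means correlated at 0.642 to 0.848 between 150 and 200 nM libraries of the same number (best with its own number in 3 of 3) and at 0.618 to 0.767 between these and 100 nM, so numbers were taken to pair dose libraries. Between DMSO and these doses the correlations were -0.134 to 0.07, and no pairing was assumed. Alternatives changed the scaling, filter, prior count, variance model, libraries in the fit, replicate block, control libraries and averaging, used the deposited values as they stand, or left out libraries.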

Additional observations from a re-analysis of the deposited data

Results flagged for a closer look

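SIGLEC15, a sialic acid binding receptor, is listed in the dose part of the table and not in the DMSO part, so it entered no comparison with DMSO. It had a mean of 4.01 CPM in the 6 libraries of 150 and 200 nM, from 15, 58 and 3 reads at 150 nM and 45, 102 and 15 at 200 nM. It was singled out because reads appeared in data that the comparisons do not use. Its level in the DMSO libraries was not analysed here.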

How the results depend on the processing

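In the counts of called genes no alternative moved the total by over 1.5 times. For both doses averaged, 7208 genes were called, and the alternatives gave 5210 (without replicate 2 of both doses) to 8972 (day 2 and day 4 DMSO as control). Of 153 named genes 138 were called, 128 of them under every alternative that tested them, and 0 called genes turned direction. By library totals 73.6% of called genes were higher, in place of 52.1%. Alternatives that left out a replicate number at both doses, used the dose libraries alone with the block, varied the washout fit or recounted list members were chosen after seeing the data.

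With the replicate number as a block 8026 genes were called averaged, 7743 at 150 nM and 8687 at 200 nM, against 6455 and 7521 without it. After the washout it gave 7220 in place of 6442, and 0 for the 200 and 150 nM comparison and for the averaged doses against 100 nM. Changes of call among named genes under the block were MT2A, SLC39A10, RPS2, RPS7 and RPL39, which passed with it.

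Genes that had not passed turned direction as follows. By library totals SUV39H1 was at 0.12, CDH2 at 0.14 and VIM at 0.12, and with the deposited values at 0.0298, 0.0444 and 0.0223. With the DMSO libraries of both days as control CDH2 was at 0.0699. Leaving out 1 library gave a range of -0.2577 to 0.0110 for SUV39H1 and -0.193 to 0.04146 for CDH2. In 200 against 150 nM it gave -0.3889 to 0.08346 for TWIST1, -0.3354 to 0.06494 for ZEB1, -0.7395 to 0.241 for FN1 and -0.1573 to 1.719 for IL8. The cause was not tested. Depth limits the genes with few DMSO reads, among them CDH1, EPCAM and ESRP1, whose counting intervals span over 10-fold.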
